A study of Mus musculus with 28 samples.

Results

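Mouse embryonic fibroblasts (MEFs) in the control arm of an induction with Oct4, Klf4 and Sox2 (OKS) were compared between day 3 and day 5. The comparison took the libraries whose labels name the control (ctr) and these days, 4 of the 28 in the series, with 2 libraries on each day. The MEFs came from embryos of OG2 mice, which carry an Oct4-GFP reporter, crossed with 129 mice, are labelled WT, and received the 3 factors by pMXs retrovirus in 2 rounds of infection. Day 0 was the change to iCD1, a chemically defined induction medium in which all induced cells were then grown. The control cells received no p38 inhibitor (the study gave them DMSO), whereas the p38i cells received SB203580, an inhibitor of the p38 MAP kinases, during induction, and the pre-p38i cells had received it before induction. Each library is the RNA of a whole culture, and the share of its cells that were infected is not given. Nothing in the labels says that the 2 libraries of a group came from separate cultures. The p-values thus measure the spread between libraries, which may be technical. Fibroblast genes were still abundant on both days, with the collagen gene Col1a2 at 2075 and 1872 on day 3 and at 1076 and 1227 on day 5, and of 33 matrix and surface genes tested only Eln was listed at 0 in all 4 libraries.

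During reprogramming, fibroblasts lose their matrix and contractile genes, acquire epithelial junctions in a mesenchymal-to-epithelial transition, and only later switch on the endogenous pluripotency network. Retroviral infection and foreign nucleic acid can be sensed by the cell, which answers through interferons and the STAT and IRF factors with a set of antiviral genes. The same signals raise MHC class I, the surface complex that shows peptides from inside the cell to T cells, together with the proteasome subunits and peptide transporters that load it.

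Many of the interferon and epithelial genes described here carry known DNA motifs before their transcription starts, and 8 stretches from genes named in the results are shown. The interferon-stimulated response element, to which IRF and STAT complexes bind, was searched as GAAA, 2 bases of any kind and GAAA, and the E-box that Snai and Zeb repressors recognise as CACCTG, on both strands in the 250 bases before the start of 27025 genes (RefSeq, GRCm38.p6), with overlapping matches allowed. The first motif stood before 936 of these genes (3.46%), before 21 of the 33 interferon response genes that had an entry and before 3 of 14 MHC class I genes. The second stood before 5252 genes (19.4%), before 14 of 18 epithelial genes, before 10 of 21 pluripotency genes and before 2 of 20 fibroblast matrix genes. An octamer, ATGCAAAT, which Oct factors bind, stood before 490 genes (1.81%) and before 1 of 21 pluripotency genes, Zfp42. Capitals mark each match, and sequences run 5′ to 3′ on the strand of the gene, at chr2:122147518-122147587 (plus strand) for B2m, chr4:156200845-156200914 (minus) for Isg15, chr11:49064243-49064312 (minus) for Tgtp2, chr5:92349063-92349132 (minus) for Cxcl10, chr17:87635930-87635978 (plus) for Epcam, chr15:102004418-102004483 (minus) for Krt8, chr7:29281978-29282016 (minus) for Spint2 and chr5:134946935-134946978 (minus) for Cldn4.
B2m: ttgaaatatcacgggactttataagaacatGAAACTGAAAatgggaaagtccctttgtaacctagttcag
Isg15: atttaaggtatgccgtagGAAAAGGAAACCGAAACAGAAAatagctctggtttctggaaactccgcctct
Tgtp2: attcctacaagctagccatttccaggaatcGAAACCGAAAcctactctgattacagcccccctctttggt
Cxcl10: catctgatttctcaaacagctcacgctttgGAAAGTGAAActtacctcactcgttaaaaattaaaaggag
Epcam: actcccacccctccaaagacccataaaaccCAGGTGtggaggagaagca
Krt8: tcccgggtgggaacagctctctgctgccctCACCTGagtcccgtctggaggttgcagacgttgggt
Spint2: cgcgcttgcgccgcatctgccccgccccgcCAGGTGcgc
Cldn4: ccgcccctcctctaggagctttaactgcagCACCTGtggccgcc
The Isg15 stretch holds 3 overlapping matches. A match is a description of the sequence and not a shown site of binding.

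Between day 3 and day 5 the control cells raised MHC class I and interferon response genes, epithelial junction genes and early genes of the pluripotency network, and lowered matrix and contractile genes of the fibroblast. The deposited values are whole numbers that sum to between 991287 and 991562 in these 4 libraries and are read as TPM, each transcript's share of its library per gene length, rounded down, and they keep no read depth. Of 13230 genes tested with limma on log2(value + 1), 2569 (19.4%) had a Benjamini-Hochberg adjusted p under 0.05 and are called changed. The calls divided into 1832 genes that were higher on day 5 (13.8%) and 737 that were lower (5.57%). The counts of each gene list below are to be read beside these shares. Changes were mostly small, with a median log2 fold change of 0.49 among the higher and -0.40 among the lower genes, and 400 and 65 of them moved by at least 1 on the log2 scale. The median over all genes tested was 0.08. After quantile normalization 1291 genes were higher and 1250 lower, and after median-of-ratios scaling 1311 and 1124, so the excess of higher calls depended on the scaling. Leaving out day 3 replicate 1 left 1578 calls and leaving out day 5 replicate 2 left 1468. The root mean square difference on the log2 scale was 0.377 between the day 3 libraries, 0.364 between the day 5 libraries and 0.498 to 0.561 between days. The values of the 2 days did not overlap for 48.2% of all genes tested, so a lack of overlap between 2 and 2 libraries is common here. Mitochondrial transcripts made up 5.19% and 5.57% of the values on day 3 and 4.83% and 4.54% on day 5, and their part in the results was not tested.

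**Figure D1:**
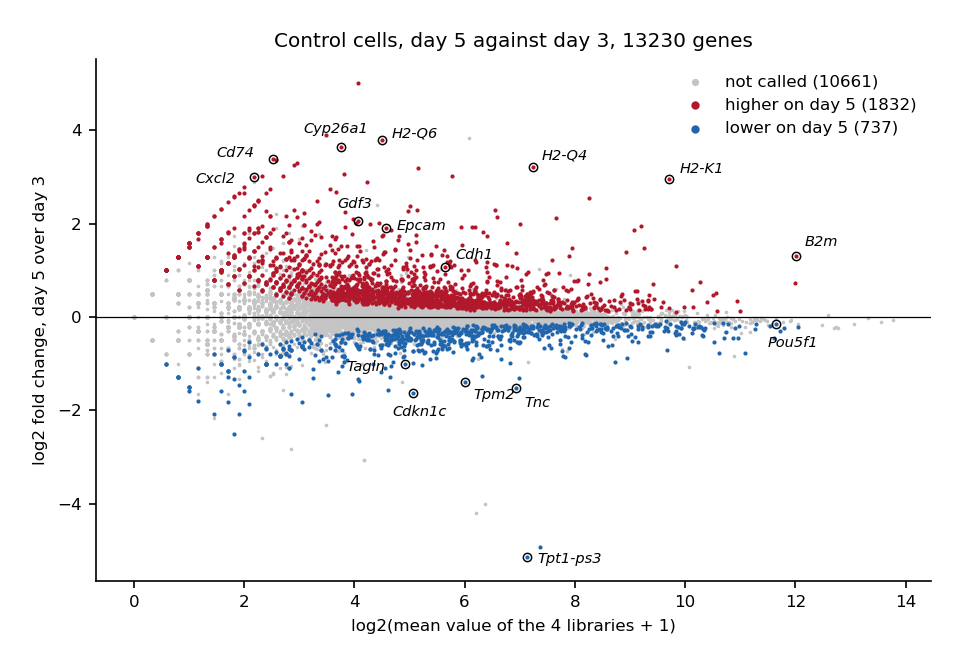
Log2 fold change (day 5 over day 3 in control cells) against log2(mean of the 4 libraries + 1) for 13230 genes. Red points are the 1832 genes called higher on day 5 and blue points the 737 called lower; grey points were not called. H2-K1 and B2m stand apart among the abundant genes, at 2.95 and 1.31, and Tnc and Tpm2 among the genes that fell, at -1.53 and -1.40.

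The classical class I heavy chain H2-K1 (chr17:33996017-34000333, minus strand) had values of 185 and 197 on day 3 and 1591 and 1383 on day 5. Its mean rose 7.79-fold (log2 fold change 2.95 ± 0.07, SE, limma adjusted p = 8.53e-16). H2-D1, the other classical heavy chain, had 219 and 242 on day 3 and 891 and 795 on day 5 (1.87 ± 0.06, limma adjusted p = 3.26e-14). B2m (chr2:122147686-122153083, plus strand), the light chain that every class I molecule needs, went from 2307 and 2447 to 6056 and 5699 (1.31 ± 0.04, limma adjusted p = 1.03e-13). In all 3 genes both day 5 libraries lay above both day 3 libraries by far more than replicates differed. The non-classical Q region genes rose by larger factors from low levels: H2-Q4 was at 24 and 34 and then at 274 and 268, H2-Q6 at 2 and 2 and then at 47 and 35, and H2-Q7 at 6 and 6 and then at 67 and 59. H2-Q4, H2-Q6 and H2-Q7 share stretches of over 200 bases at 95% identity or more with each other or with other listed genes, so the split of reads among them is uncertain.

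Of the 18 genes in the MHC class I list, 16 rose and 0 fell, against 13.8% and 5.57% of all genes, with a median log2 fold change of 1.16. They include the inducible proteasome subunits Psmb8 (38 and 66, then 222 and 186; 2.00) and Psmb9 (21 and 31, then 77 and 64; 1.42), which cut peptides for class I. The transporter genes Tap1 (83 and 109, then 179 and 182) and Tap2 (28 and 35, then 69 and 77), which carry peptides into the endoplasmic reticulum, rose by 0.92 and 1.19. The peptide-loading factor Tapbp rose from 184 and 202 to 318 and 345 (0.78). The class I transactivator Nlrc5 was at 8 and 11 and then at 19 and 18 and did not pass the test (0.91, limma adjusted p = 0.112). In a fit of the 4 libraries alone 6 of the list were called higher. Leaving out 1 library at a time left 15 or 16 of the list called higher.

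Of the 45 interferon response genes, 33 rose and 0 fell, with a median log2 fold change of 0.72. In the summed level of the list, day 3 replicate 1 stood at 4187 and replicate 2 at 5162, and the day 5 libraries at 7773 and 7652. The day 3 libraries thus differed from each other, though both stayed under day 5. The immunity-related GTPases, which attack the vacuoles of intracellular pathogens, show the same order. Tgtp2 was at 22 and 52 on day 3 and at 180 and 128 on day 5 (2.13 ± 0.30, limma adjusted p = 5.64e-05). Iigp1 was at 20 and 42 and then at 115 and 111 (1.92 ± 0.21, limma adjusted p = 2.41e-06). Tgtp2 is 99.8% identical to Tgtp1 over 2811 bases, so their values cannot be separated with certainty.

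Ifit3, an RNA-binding antiviral protein, rose from 34 and 52 to 99 and 101 (1.23), and Bst2, which tethers budding virus to the membrane, from 523 and 645 to 1291 and 1205 (1.10). The ubiquitin-like modifier Isg15 rose from 238 and 289 to 438 and 441 (0.74). Among transcription factors of the list, Stat2 rose by 0.49, Irf1 by 0.60 and Irf7 by 0.65 on the log2 scale, whereas Irf9 went from 95 and 100 to 103 and 110 without passing the test. The chemokines Cxcl10 (3 and 3, then 11 and 16) and Ccl5 (2 and 2, then 12 and 14) rose from low levels. The number of interferon genes called higher fell to 10 without day 3 replicate 1, to 16 without day 5 replicate 2, to 14 with a pseudocount of 0.1 and to 6 in a fit of the 4 libraries alone. Ccl5 lost its call without either day 3 library, without day 5 replicate 2 and with a pseudocount of 0.1.

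**Figure D2:**
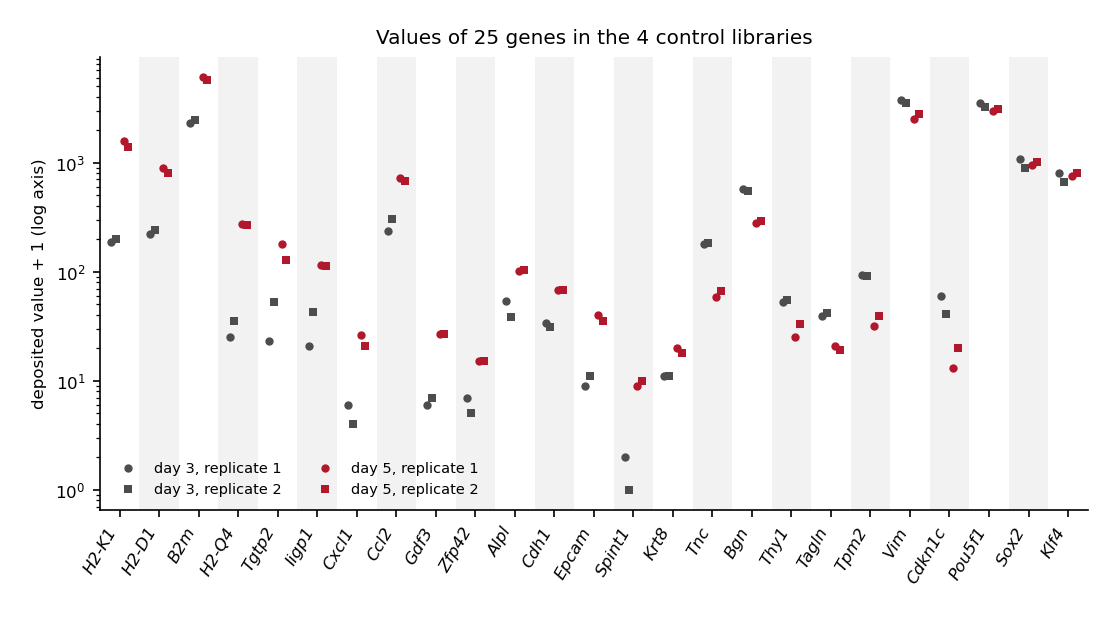
Deposited value plus 1 (log axis) of 25 genes in the 4 control libraries. Grey marks are day 3 and red marks day 5; circles are replicate 1 and squares replicate 2. H2-K1 lies at 185 and 197 on day 3 and at 1591 and 1383 on day 5, and the day 3 replicates of Tgtp2 and Iigp1 lie apart from each other.

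Secreted inflammatory genes rose in part, with 9 of 20 tested genes higher and 2 lower (1 without any 1 library). The neutrophil chemokines Cxcl1 (5 and 3, then 25 and 20; 2.25 ± 0.42, limma adjusted p = 0.00072) and Cxcl2 (listed at 0 in both day 3 libraries, then 7 and 7) rose. The monocyte chemokine Ccl2 rose from 234 and 301 to 726 and 677 (1.40 ± 0.12, limma adjusted p = 9.49e-08). Cxcl12, a stromal chemokine, fell from 19 and 17 to 8 and 10 (-0.93), though without day 3 replicate 1 or without day 5 replicate 1 its call was lost (adjusted p up to 0.085 over the alternatives). Il1b was listed at 0 in all 4 libraries.

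Markers of immune cells were measured beside these genes. Of 17 macrophage markers tested, 4 rose (2 without day 3 replicate 2 or day 5 replicate 2) and 1 fell, and the sum of the list went from 570 and 564 to 669 and 688. The scavenger receptor Marco rose from 11 and 8 to 50 and 56 (2.38 ± 0.28, limma adjusted p = 8.07e-06) and Laptm5 from 82 and 69 to 131 and 142 (0.85). The defining receptor Csf1r was at 4 and 3 on both days, Ptprc at 1 in every library, Cx3cr1 was listed at 0, and Lyz2 was at 248 and 275 and then at 270 and 261. Cd68, a lysosomal marker, fell from 76 and 70 to 44 and 51 (-0.61). Of the T and NK cell markers Cd3g rose from 12 and 8 to 52 and 50, while Cd3e, Cd3d, Cd4, Cd8a and 5 others of the list of 10 were listed at 0. The part of such cells in the interferon and chemokine results was not tested. In bulk RNA, more cells of a type and more RNA per cell cannot be told apart.

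Of 29 epithelial genes tested 12 were higher and 0 lower, with a median log2 fold change of 0.64, and 1 was called lower after quantile normalization. E-cadherin, Cdh1, the adhesion protein of epithelial junctions, had values of 33 and 30 on day 3 and rose to 67 and 67 on day 5 (1.07 ± 0.10, limma adjusted p = 2.17e-07). The adhesion molecule Epcam went from 8 and 10 to 39 and 34 (1.91 ± 0.20, limma adjusted p = 1.52e-06). Spint1, a membrane inhibitor of serine proteases, was at 1 and 0 and then at 8 and 9 (2.75 ± 0.36, limma adjusted p = 2.43e-05), and its relative Spint2 rose from 98 and 92 to 168 and 160 (0.78). Replicates of these genes differed far less than the days did.

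The keratin Krt8 rose from 10 and 10 to 19 and 17 (0.79), but its call was lost when any of the 4 libraries was left out and with a pseudocount of 0.1, with adjusted p up to 0.405 over the alternatives. Its partner Krt18 was at 14 and 13 and then at 12 and 11 and was not called. The tight junction gene Cldn3 was at 1 and 0 and then at 2 and 2 (limma adjusted p = 0.0803, and called higher without day 3 replicate 1), and Cldn4 rose from 1 and 1 to 5 and 3. Of the plakophilins, which are desmosomal proteins, Pkp3 rose from 9 and 9 to 15 and 18 (0.80), whereas Pkp2 was at 11 and 10 and then at 9 and 7 and was not called. Desmoplakin, Dsp, was at 67 and 53 and then at 45 and 54 and was not called either. Grhl2, Ovol1 and Esrp1, regulators of epithelial identity, were listed at 0 in all 4 libraries. Without 1 library, 8 or 9 epithelial genes were called higher.

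In the pluripotency network 7 of the 19 genes tested rose and 0 fell, with a median of 0.44. A further 15 of the 34 listed genes did not pass the filter on low values. Gdf3, a TGF-β family ligand of pluripotent cells, had values of 5 and 6 on day 3 and 26 and 26 on day 5 (2.06 ± 0.16, limma adjusted p = 4.74e-08). Alpl, the alkaline phosphatase used to stain colonies, went from 53 and 37 to 100 and 102 (1.17). Zfp42 (Rex1), a zinc finger marker of naive cells, rose from 6 and 4 to 14 and 14 (1.34 ± 0.29, limma adjusted p = 0.00257), and the transcription factor Tfcp2l1 from 10 and 10 to 24 and 26 (1.24). Both lost their call with a pseudocount of 0.1, where 3 of the list were called.

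Several central regulators of the network stayed at or near 0. Nanog was listed at 0 in 3 libraries and at 1 in day 5 replicate 2. Esrrb, Dppa5a, Dppa3, Lin28a and Sall4 were listed at 0 in all 4. Of the induced factors, Sox2 had values of 1080 and 886 and then 942 and 1018, Klf4 of 806 and 667 and then 755 and 801, and Pou5f1 (Oct4) of 3488 and 3216 and then 2944 and 3117. Sox2 and Klf4 were not called, and Pou5f1 fell by 0.14 on the log2 scale (limma adjusted p = 0.0299). The Pou5f1 call was lost without day 3 replicate 1, without day 5 replicate 1, after quantile normalization, with the replicate block and without a trend in eBayes, with adjusted p up to 0.667. The values do not separate the retroviral from the endogenous transcripts of these genes.

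In the fibroblast matrix and surface list 18 of 33 genes fell and 0 rose, with a median log2 fold change of -0.29. Tenascin C, Tnc (chr4:63959785-64047015, minus strand), had values of 178 and 182 on day 3 and 58 and 66 on day 5 (-1.53 ± 0.09, limma adjusted p = 5.41e-10). The proteoglycan Bgn went from 575 and 543 to 277 and 291 (-0.97 ± 0.07, limma adjusted p = 7.51e-09), and the surface marker Thy1 from 52 and 54 to 24 and 32 (-0.91 ± 0.11, limma adjusted p = 1.01e-05). The BMP antagonist Grem1 fell from 292 and 288 to 171 and 193. In each of these genes both day 5 libraries lay below both day 3 libraries, but the days did not overlap in 2568 of all 2569 called genes. Without 1 library 17 or 18 genes of the list were called lower, and 1 gene was called higher without day 3 replicate 2, without day 5 replicate 1 and after quantile normalization.

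Contractile and SRF target genes, which encode the actin cytoskeleton of the fibroblast, fell in 9 of 17 and rose in 0, with a median of -0.38. Tropomyosin Tpm2 went from 93 and 91 to 31 and 38 (-1.40 ± 0.12, limma adjusted p = 9.13e-08) and transgelin, Tagln, from 38 and 41 to 20 and 18 (-1.02). Of 18 mesenchymal genes 6 fell and 0 rose, with 11 lower after quantile normalization and 8 after median-of-ratios scaling. Fibronectin, Fn1, fell from 1041 and 982 to 591 and 649 (-0.71) and S100a4 from 337 and 413 to 215 and 209 (-0.81). Among the transcription factors of the list, Twist2 fell from 46 and 41 to 29 and 38 (-0.38). Snai1 was at 6 and 4 and then at 3 and 3 (limma adjusted p = 0.0736) and Snai2 at 10 and 10 and then at 7 and 9, neither of them called. Twist1 was at 155 and 144 and then at 141 and 128 (limma adjusted p = 0.098, but called lower after either scaling or without day 5 replicate 1), and Zeb1 at 17 and 16 and then at 15 and 19 and Zeb2 at 18 and 17 and then at 18 and 18 were not called. Of 16 TGF-β genes 5 fell and 0 rose, with 2 lower without day 3 replicate 1, 3 without day 5 replicate 2 and 1 without day 5 replicate 1. Of 14 BMP genes 1 rose and 2 fell: Id3, a target of BMP signalling, rose from 25 and 25 to 39 and 42 (0.67), and the antagonist Fst fell from 121 and 140 to 70 and 69 (-0.90).

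**Figure D3:**
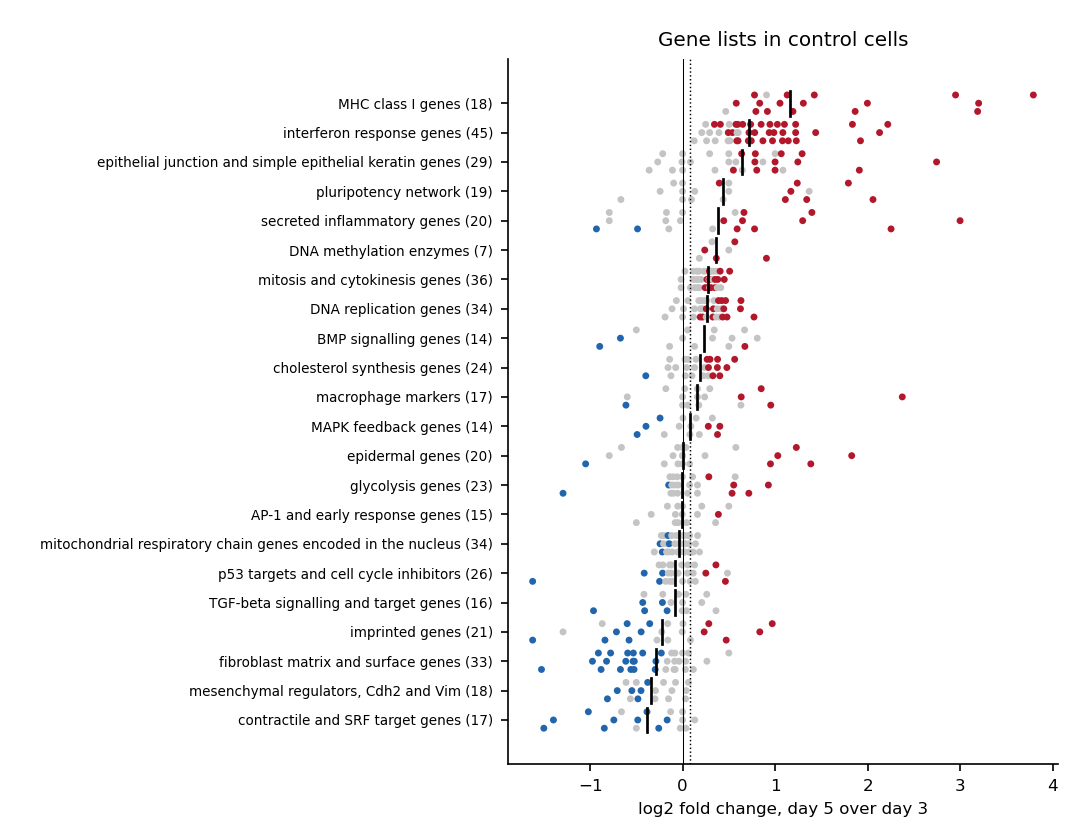
Log2 fold change (day 5 over day 3) of each tested gene in the 22 lists with at least 7 tested genes, with the number tested in brackets. Red points were called higher, blue points lower and grey points neither; black bars are list medians and the dotted line is the median of all genes, 0.08. The MHC class I and interferon lists lie to the right of the dotted line and the contractile, mesenchymal and matrix lists to its left.

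Of 34 DNA replication genes 14 rose and 0 fell, with a median of 0.26, and of 36 genes of mitosis and cytokinesis 12 rose and 0 fell, with a median of 0.27. Cdca8, a subunit of the chromosomal passenger complex, rose from 25 and 25 to 36 and 36 (0.51), and the polymerase subunit Pold1 from 9 and 11 to 15 and 17 (0.63). Without day 5 replicate 2, 7 replication and 5 mitosis genes were called, and without day 3 replicate 1, 8 and 6. Without day 5 replicate 1, 9 replication genes were called. After quantile normalization the counts were 10 and 7. Of 26 p53 targets and cell cycle inhibitors 3 rose and 4 fell, against 13.8% and 5.57% of all genes. The falls numbered 6 after either scaling. The calls of 2 rises, Cdkn1b and Plk2, were lost without day 5 replicate 2. The cyclin-dependent kinase inhibitor Cdkn1c, an imprinted gene, fell from 59 and 40 to 12 and 19 (-1.62 ± 0.18, limma adjusted p = 4.07e-06). Ccng1, a p53 target, fell from 747 and 752 to 555 and 569 (-0.41), and Cdkn1a (p21) from 1258 and 1191 to 1027 and 1033 (-0.25), a call that quantile normalization removed. Trp53 itself, encoding p53, rose from 156 and 142 to 184 and 199 (0.36 ± 0.07, limma adjusted p = 0.000644).

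Among 7 DNA methylation enzymes tested 4 rose and 0 fell, with 2 higher without day 5 replicate 2. Uhrf1 and Dnmt1, which copy methylation to the new strand, rose by 0.56 and 0.36, from 37 and 43 to 58 and 61 and from 54 and 55 to 68 and 73. Tet2, which oxidises methylcytosine, rose from 10 and 14 to 19 and 28, and its call was lost without day 3 replicate 1 or day 5 replicate 2 (log2 fold change 0.64 to 1.17 over the libraries left out). In glycolysis 5 of 23 genes rose and 2 fell, and the glucose transporters Slc2a1 (36 and 31, then 67 and 62; 0.93) and Slc2a3 (13 and 13, then 22 and 22; 0.72) were among those that rose. The glycolysis rises numbered 2 without day 3 replicate 2 and 3 without day 5 replicate 2, and the falls 0 without day 3 replicate 1, 1 without either day 5 library and 5 after median-of-ratios scaling. Of 34 nuclear genes of the respiratory chain 0 rose and 4 fell. The falls numbered 0 without day 5 replicate 2, 1 without day 3 replicate 2, 1 without a trend in eBayes and 8 after median-of-ratios scaling, and 1 gene was higher without day 5 replicate 1. Cholesterol synthesis genes rose in 9 of 24 and fell in 1, and 5 were higher without day 5 replicate 2 and 6 after either scaling, while the fall was lost without day 3 replicate 1 or either day 5 library. Among the rises was Insig1, a regulator of the pathway, at 120 and 123 and then at 167 and 194 (0.56).

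Of 20 epidermal genes 5 rose and 1 fell. Fam25c was at 42 and 28 and then at 120 and 129 (1.83), the galectin Lgals7 at 12 and 12 and then at 32 and 34 (1.39), and Trp63, a transcription factor of stratified epithelium, at 3 and 5 and then at 10 and 11 (1.23). Imprinted genes moved both ways, with 5 of 21 higher and 7 lower. Without day 3 replicate 2 or day 5 replicate 2 only 1 was higher, without day 3 replicate 1 or after either scaling 3 were, and quantile normalization gave 11 lower. Rian, a non-coding RNA of the Dlk1 and Meg3 region, rose from 90 and 89 to 124 and 125 (0.47), whereas Dlk1 fell from 7 and 7 to 3 and 4 (-0.84) and Nnat from 122 and 114 to 74 and 69 (-0.71). Of 14 genes that mark feedback on MAP kinases 3 rose and 3 fell (1 without day 3 replicate 1 or day 5 replicate 2), with Etv5, a target of ERK signalling, at 95 and 87 and then at 114 and 123 (0.38). In the list of 15 AP-1 and early response genes, Ier3 was the 1 gene that rose and 0 fell, and its call was lost without day 3 replicate 1 or day 5 replicate 2. Lists of markers for other lineages held few tested genes. Of 3 endoderm, trophoblast and mesoderm regulators, Tfap2c was called higher from 0 and 0 to 1 and 1, a call lost without any 1 of the 4 libraries. Of 3 neural regulators 1 fell (Tubb3, 42 and 41, then 29 and 25). Of 3 endothelial markers 1 rose (Tek, though not without day 3 replicate 1 or day 5 replicate 2). The 3 genes tested in the muscle and neuronal list fell and are all neuronal: Stmn2 (289 and 276, then 162 and 154), Map2 and again Tubb3. The Map2 call was lost without the filter and with the replicate block. The other 9 genes of that list, among them all muscle markers, were listed at 0. Pecam1, the defining endothelial marker, was listed at 0. Where a list had 0 calls in one direction, limma at an unadjusted p under 0.05 gave at most 2 of its genes in that direction (2 matrix genes higher, 1 respiratory chain gene higher, 1 epithelial gene lower).

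By size alone, and among called genes that averaged 5 or more on the higher day and did not overlap between days, the rises included Cyp26a1, the enzyme that degrades retinoic acid, at 1 and 1 on day 3 and 27 and 21 on day 5 (3.63 ± 0.23, limma adjusted p = 3.43e-09). Cd74, the invariant chain of MHC class II, was listed at 0 in both day 3 libraries and was at 10 and 9 on day 5. The non-coding RNA Halr1, next to the Hoxa cluster, was at 0 and 1 and then at 13 and 13, and the unnamed gene Gm37697 at 0 and 1 and then at 12 and 13. Gm43590, Gm2260 and 1 gene named only by its clone also met the rule, but each shares at least 300 bases at 95% identity or more with other listed genes and lost its call without 1 library. The genes that fell most were Tpt1-ps3 and Gm29216, near-identical copies of Tpt1 and mt-Co1 that were listed at 0 in day 5 replicate 2 and lost their calls without it or without either day 3 library. They were followed by RP23-145I16.3, Gm5251, Rps19-ps6, Gm1141 and Hist1h2al, whose calls were each lost without at least 1 library, and by Cdh26, Cma2 and Cdkn1c. Cdh26, a cadherin, was at 9 and 11 and then at 2 and 3 (-1.66), and the mast cell protease gene Cma2 at 22 and 23 and then at 7 and 6 (-1.65). The Cma2 call was lost with a pseudocount of 0.1.

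The step from day 3 to day 5 was then set against the steps on either side of it in control cells, which share its libraries. Compared with the step from day 1 to day 3, 2089 genes (15.8%) changed more upward and 1293 (9.77%) more downward. For interferon genes the median log2 fold change was 3.68 from day 1 to day 3, 0.72 from day 3 to day 5 and -0.88 from day 5 to day 7, and 39 of 45 had a more downward change in the second of these steps than in the first. Over days 1, 3, 5 and 7 the GTPase Igtp went from 1 and 0 to 96 and 159, to 244 and 231 and back to 96 and 84, and without day 3 replicate 1 its rise from day 3 to day 5 was not called. Trh, which encodes thyrotropin-releasing hormone, was listed at 0 on day 1 and then reached 307 and 340, 922 and 873, and 1749 and 1792. From day 1 to day 3, 3174 of all 13230 genes tested were called lower and 2715 higher. All 36 mitosis genes fell in that step (median -0.90), and all 36 had a more upward change from day 3 to day 5. For replication genes 26 of 34 and for cholesterol synthesis genes 16 of 24 had a more upward change. Pluripotency genes were more downward in 5 of 19 and more upward in 1. Their median was 1.01 from day 1 to day 3 and 0.44 from day 3 to day 5. MHC class I genes were more downward in 9 of 18 and more upward in 6, with medians of 1.88 and 1.16 in these steps. Contractile genes fell with a median of -1.20 in the earlier step and -0.38 in the later one, and 10 of 17 had a more upward and 1 a more downward change.

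Compared with the step from day 3 to day 5, the step from day 5 to day 7 was more upward for 268 genes (2.03%) and more downward for 836 (6.32%), and for 67 and 151 without day 5 replicate 2. All 18 MHC class I genes and 36 of 45 interferon genes were more downward after day 5. H2-K1 stood at 1476 and 1338 on day 7, close to its values on day 5, whereas Iigp1 returned to 21 and 19 and Il18bp, a decoy for interleukin-18, went from 31 and 36 on day 5 to 7 and 10. Secreted inflammatory genes were more downward in 10 of 20, with Cxcl2 at 7 and 7 on day 5 and at 2 and 2 on day 7. Pluripotency genes were more upward in 5 of 19 and more downward in 1, and on day 7 Nanog was at 12 and 16, Dppa5a at 22 and 30 and Esrrb at 7 and 4. Epcam reached 182 and 183 and Cdh1 159 and 151. Atp1b1, a subunit of the sodium pump, went from 4 and 3 through 7 and 6 to 40 and 40 over days 3, 5 and 7, and Rbpms2 from 7 and 8 through 4 and 4 to 9 and 7.

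**Figure D4:**
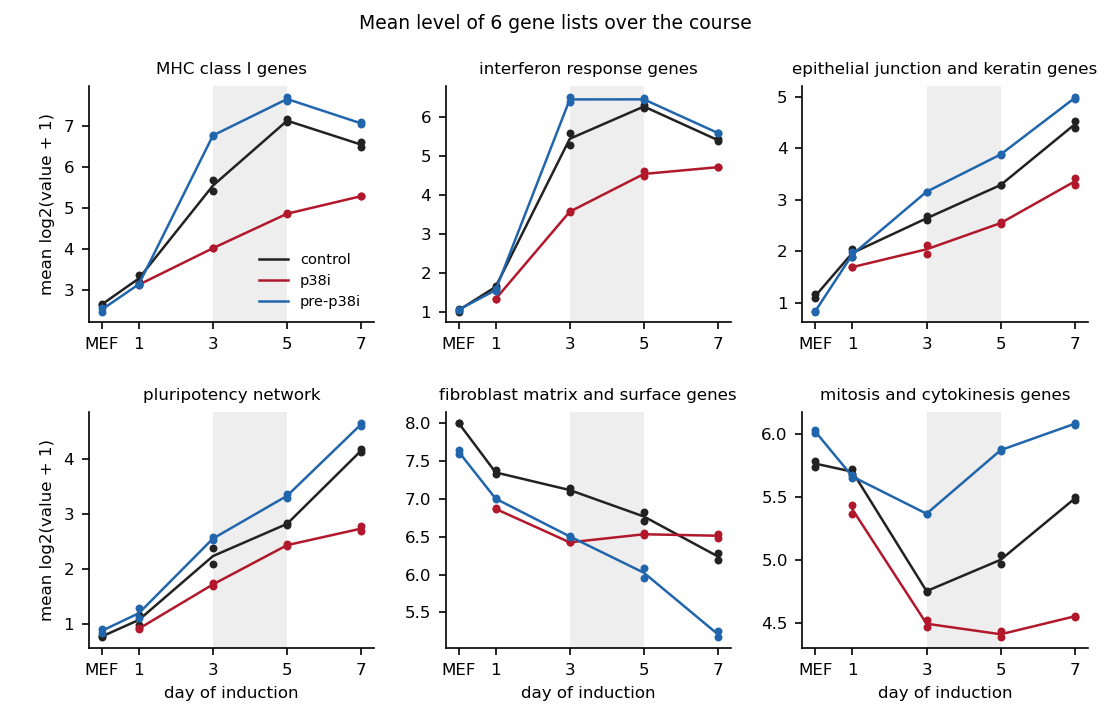
Mean log2(value + 1) over the tested genes of 6 lists in untreated MEFs and on days 1, 3, 5 and 7, for control cells (black), p38i cells (red) and pre-p38i cells (blue, starting from p38i-treated MEFs). Points are libraries, lines join the means of 2 and grey marks the step from day 3 to day 5. In control cells the MHC class I and interferon lists peak on day 5, whereas the epithelial and pluripotency lists go on rising to day 7.

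The same step was compared between arms by the interaction in the same fit. In p38i cells 118 genes (0.892%) had a more upward and 120 (0.907%) a more downward change than in control cells. Several class I genes rose less under the inhibitor: H2-K1 was at 127 and 133 on day 3 and at 277 and 268 on day 5 in p38i cells, against 185 and 197 and then 1591 and 1383 in control cells (difference in log2 fold change -1.89, limma adjusted p = 1.8e-09). B2m was at 2158 and 2057 and then at 2930 and 2875 in p38i cells (difference -0.84, limma adjusted p = 1.35e-07), and the difference was called in 7 of 18 class I genes, all downward. Cd74 was listed at 0 in all 4 p38i libraries of these days. For interferon genes 2 of 45 differed upward and 1 downward, and their median in p38i cells was 0.98 against 0.72 in control cells. Their level was lower in p38i cells on both days. The mean log2(value + 1) of the list was 3.57 on day 3 and 4.54 on day 5, against 5.44 and 6.27 in control cells.

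Over the step from day 3 to day 5 in p38i cells, 1571 of all 13230 genes tested were called higher and 516 lower. Of the 33 matrix genes 7 fell and 12 rose. The difference from control cells was called in 15 genes, all more upward, and the median log2 fold change of the list was 0.13 against -0.29. Tnc was at 154 and 144 and then at 108 and 104 in p38i cells (difference 1.04, limma adjusted p = 8.9e-05), and Igfbp5, a binding protein of insulin-like growth factors, at 3 and 3 and then at 5 and 5, against 38 and 29 and then 15 and 18 in control cells. Cholesterol synthesis genes were more downward in 10 of 24 under the inhibitor, with medians of -0.19 and 0.19. For epithelial and pluripotency genes limma called 0 differences in either arm. The epithelial median was 0.21 in p38i cells against 0.64 in control cells, and the pluripotency median 0.77 against 0.44. The mean log2(value + 1) of the epithelial list was 2.04 and 2.55 on days 3 and 5 in p38i cells. In control cells it was 2.64 and 3.29. At an unadjusted p under 0.05 limma gave 4 of 29 epithelial genes (1 more upward, 3 more downward) and 2 of 19 pluripotency genes for p38i cells. For pre-p38i cells it gave 1 and 3. Epcam, at 6 and 5 and then at 30 and 28 in p38i cells, differed by 0.30 ± 0.28 (SE, limma adjusted p = 0.672).

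In pre-p38i cells 35 genes (0.265%) had a more upward and 106 (0.801%) a more downward step than in control cells. Interferon genes were already high on day 3 there and then moved little, with a median of -0.04, and 5 of 45 were more downward than in control cells. At an unadjusted p under 0.05 limma gave 30 of 45 as more downward and 0 as more upward. Iigp1 was at 118 and 127 on day 3 and at 115 and 123 on day 5. H2-K1 was at 519 and 490 and then at 2250 and 2356 (difference -0.76, limma adjusted p = 0.000965). The difference was called in 5 of 18 class I genes, and limma gave 13 at an unadjusted p under 0.05, all downward. Acod1, which makes itaconate in activated macrophages, was at 1 and 3 and then at 11 and 12 in control cells. In pre-p38i cells Acod1 was at 5 and 5 and then at 4 and 5. The mean log2(value + 1) of the macrophage list was 3.84 and 4.15 on days 3 and 5 in control cells. In pre-p38i cells it was 2.81 and 2.51. The step was more downward in 1 of 17 macrophage markers there. The part of macrophages in these differences was not tested. The matrix genes fell with a median of -0.45, and 4 of 33 were more downward than in control cells. The arms share the control libraries of days 3 and 5, and the more upward and more downward genes in p38i cells numbered 40 and 56 without day 3 replicate 1, 43 and 71 without day 5 replicate 1 and 112 and 67 without day 5 replicate 2. They numbered 49 and 50, 61 and 71 or 63 and 82 without the p38i libraries of day 3 replicate 1, day 3 replicate 2 or day 5 replicate 1.

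**Figure D5:**
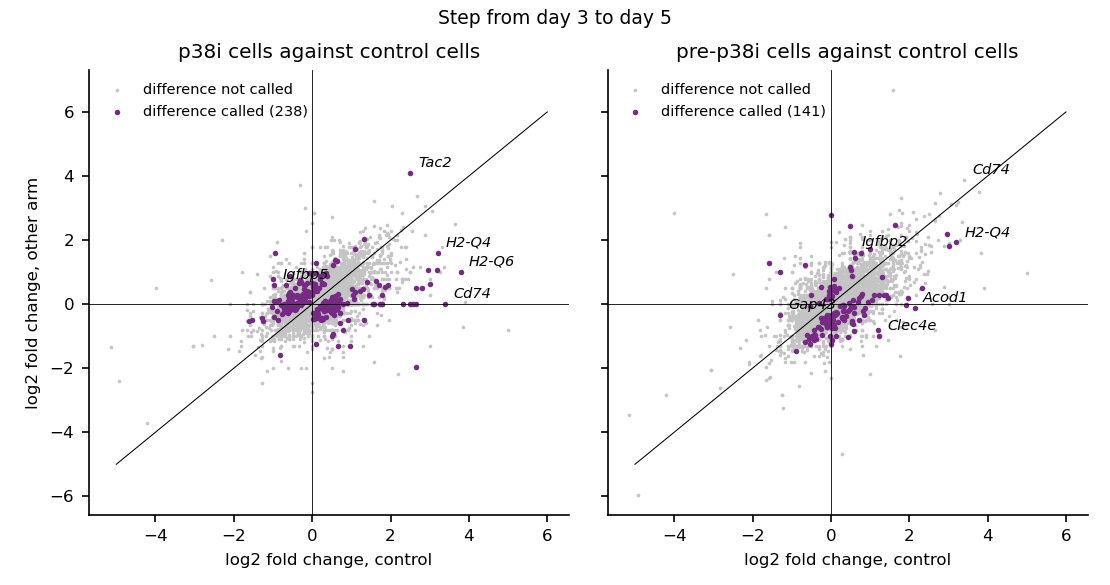
Log2 fold change from day 3 to day 5 in p38i cells (left) and pre-p38i cells (right) against that in control cells, for 13230 genes. Purple points are the 238 and 141 genes whose change differed between arms, grey points the others and the diagonal marks equal change. Cd74, H2-Q6 and H2-Q4 lie far below the diagonal in p38i cells.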

How the data were processed

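RNA-seq was performed on 28 libraries in 14 groups of 2 (MEFs with and without p38i, and days 1, 3, 5 and 7 in each of the control, p38i and pre-p38i arms). Groups and replicate numbers came from the sample titles. The 4 control libraries of days 3 and 5 were compared here, and the members and gene lists were chosen with earlier results of these data known. On the library kit and the RNA extraction the labels give another answer than the methods.

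For each gene the authors deposited 1 score per library, a whole number whose totals are those of TPM rounded down. The submitters' processing notes name bcl2fastq, Bowtie2 2.2.5, RSEM 1.3.0, mm10 and hg38 without roles. TPM keep no read depth, so no counting interval was given. A list of 27 gene names that a spreadsheet had turned into dates was restored by gene identifier.

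Genes averaging 1 or more over the 28 libraries (13230) were tested on log2(value + 1) with lmFit and a trended eBayes of limma 3.58.1 (R 4.3.3), with all 14 groups in 1 model and no replicate block, and called at a Benjamini-Hochberg adjusted p under 0.05 over all genes. The added 1 makes the fold changes of low genes too small. An exact permutation test of 2 against 2 libraries cannot give a p below 0.333. The scripts were tested on simulated data. Replicate numbers did not pair the libraries (correlation of deviations -0.01 between days 3 and 5). Near-identical transcripts (95% identity over 200 bases) were found with BLAST 2.17.0+. Of the 127 genes picked by the naming rule below, 17 had one at a value of 1 or more outside their own locus. Coordinates are those of the deposited table (GRCm38).

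Named genes were the 10 largest rises and 10 largest falls (called, averaging 5 or more on the higher day, with days that did not overlap), genes the study names, the 3 largest changes in each direction per list and, for each difference between steps, the 3 largest in each direction that were also called in the step. List members outside this rule were named after their values were seen. The 28 lists held 609 genes. The alternatives changed the pseudocount (0.1), the filter (none, or a mean of 5), the scaling (quantile normalization, median of ratios) or the threshold (a 2-fold minimum), or used a replicate block, eBayes without a trend, a fit of only the 4 libraries, and leaving out each library.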

Additional observations from a re-analysis of the deposited data

Results flagged for a closer look

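The step from day 3 to day 5 differed between arms, by the interaction term in limma, for 238 genes between p38i and control cells and for 141 genes between pre-p38i and control cells. Within each of these sets, the genes with the largest differences that were also called in control cells are given here as the log2 fold change in the other arm minus that in control cells. In p38i cells Tac2, a tachykinin precursor, rose more steeply, being listed at 0 on day 3 and at 16 and 16 on day 5, against 2 and 2 and then 14 and 18 in control cells (difference 1.60, limma adjusted p = 0.00173). Igfbp5 differed by 1.56 (limma adjusted p = 0.000231) and Fam229b by 1.79 (limma adjusted p = 0.0496), the latter at values of 7 or less. The changes of H2-Q6 (-2.79, limma adjusted p = 1.5e-07), Cd74 (-3.39, limma adjusted p = 0.000334) and Gm13610 (-4.61, limma adjusted p = 0.0375) were more downward in p38i cells.

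In pre-p38i cells Igfbp2, another binding protein of insulin-like growth factors, was at 3 and 5 and then at 14 and 14, against 4 and 4 and then 6 and 7 in control cells (difference 1.03, limma adjusted p = 0.0243). Gap43, a protein of growing nerve endings, differed by 0.96 (limma adjusted p = 0.0228) and RP23-356D13.9 by 0.84 (limma adjusted p = 0.00955). Clec4e, a receptor for mycobacterial glycolipids, was at 2 and 2 and then at 6 and 6 in control cells and at 1 and 1 and then listed at 0 in pre-p38i cells (difference -2.22, limma adjusted p = 0.00041). Acod1 differed by -2.27 (limma adjusted p = 0.0222) and BC023105 by -1.99 (limma adjusted p = 0.0167). The mean level of the macrophage list was lower in pre-p38i than in control cells on both days, and its part here was not tested.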

How the results depend on the processing

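The count of 2569 calls between day 3 and day 5 stayed between 2231 and 2541 with a pseudocount of 0.1, without the filter, with a minimum mean of 5, under quantile normalization, median-of-ratios scaling or the replicate block (2373), and without the trend in eBayes. It was 365 in a fit of only the 4 libraries, which have 2 residual degrees of freedom, and 0 there with the replicate block (2703 genes at an unadjusted p under 0.05 with limma), where 1 is left. Without 1 library it was 1468 to 2021. Replicate numbers did not pair the libraries, so the block is an alternative and not the design. In the fit of only the 4 libraries without the block, 6 class I, 6 interferon, 6 epithelial and 2 pluripotency genes were called higher. There 3 matrix genes and 1 contractile gene were called lower, and 0 replication genes and 1 mitosis gene higher.

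A minimum log2 fold change of 1 left 465 of these calls, and for the 4 differences between steps 1206 (earlier step), 343 (later step), 46 (p38i) and 28 (pre-p38i). With the replicate block the p38i comparison gave 140 calls. Without the filter the pre-p38i comparison gave 238. Leaving out 1 library gave 2031 to 3204 calls for the earlier step, 218 to 885 for the later step, 96 to 270 for p38i and 61 to 140 for pre-p38i. The lowest counts came without day 3 replicate 1 (earlier step, p38i) or day 5 replicate 2 (later step, pre-p38i). The share of more upward genes against the earlier step was 61.8%, and 51.8% or 46.1% after quantile or median-of-ratios scaling; against the later step it was 24.3%, and 41.5% after either; in p38i it was 49.6%, and 37.7% without control day 5 replicate 1, 62.6% without replicate 2 of that day and 28.3% at the minimum fold change; in pre-p38i it was 24.8%, and 34.9% without the filter.

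The naming rule picked 118 genes that were called, and genes named outside it, such as H2-K1, H2-D1 and B2m, were not tallied. Of the 118, 62 kept the call in each of the 7 settings that fit all libraries without a fold minimum. These 62 also kept it without each of the 4 libraries. Of the 118, 0 changed direction. The cause of the lost calls was not tested. Fewer than 3 libraries a group and an unknown depth limit what low genes can show.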

Other observations

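Several of the genes that rose lie next to each other on the chromosome, a pattern chosen after the values were seen and not tested. Ordering tested genes by start, 9 runs of at least 4 neighbours were all called higher on day 5 by at least 0.5 on the log2 scale, and 1 such run was called lower. Of the 1832 genes called higher 927 moved by less than 0.5, and of the 737 called lower 470 did. More higher than lower genes could thus enter a run. On chromosome 13 (93616891 to 93752831 for the first 3) Bhmt and Bhmt2, which methylate homocysteine, and Dmgdh, which takes a methyl group from dimethylglycine, rose together. Bhmt was listed at 0 in both day 3 libraries and at 7 and 5 on day 5, Bhmt2 was at 1 and 1 and then at 8 and 8, and Dmgdh at 2 and 2 and then at 24 and 24 (3.06 ± 0.13, limma adjusted p = 5.17e-12). Their neighbour Arsb, a lysosomal sulfatase, rose from 52 and 49 to 70 and 77. On chromosome 17 a run of 4 genes outside the lists held H2-M5 (1 and 1, then 7 and 5), 2410137M14Rik (3 and 4, then 14 and 14) and Zfp57, which protects imprinted marks (121 and 113, then 185 and 158; 0.54).

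The other runs of higher genes held 4 Gbp genes and Gm43302 on chromosome 5, Olfr56, Tgtp1, 9930111J21Rik2, Tgtp2 and Ifi47 on chromosome 11, Ifi27, Ifi27l2a, Ppp4r4 and Serpina3g on chromosome 12, Iigp1 with 3 neighbours, 2 stretches of the MHC region on chromosome 17 and 4 Ifit genes on chromosome 19. The annotated span of Olfr56 covers Tgtp1, Tgtp2 and Ifi47, and Gm43302 overlaps Gbp6 and Gbp10, so the values of such overlapping genes are uncertain. The run that fell lies on the X chromosome and holds Gpr50 (121 and 103, then 43 and 49; -1.26), Vma21 (229 and 235, then 146 and 144; -0.67), Gm1141 and Prrg3.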
